A study of Mus musculus with 39 samples.

Results

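Transcript levels of 10 macrophage and Kupffer cell genes were followed in 39 mouse RNA-seq libraries from a study of the transcription factor E47 in glucocorticoid responses. The genes were taken by symbol: Clec4f, Marco, Cd5l, Adgre1, Cd68, Csf1r, Mrc1, Cd163, Cd14 and Retnla, 10 of the 45706 gene identifiers shared by all files. The libraries formed 12 groups, each wild-type or mutant for E47, an E-protein made from the Tcf3 gene that binds E-box DNA motifs. Untreated livers came from 5 wild-type (E47+/+) and 6 E47KO (E47-/-) mice. Livers after 3 weeks of dexamethasone (Dex, a synthetic glucocorticoid, at 10 µg/ml in the drinking water) came from 2 wild-type and 3 E47KO mice, white adipose tissue (WAT) from 2 and 2, and skeletal muscle from 2 and 3. Livers after 3 weeks of corticosterone (Cort, the natural rodent hormone, at 100 µg/ml in the drinking water) came from 4 wild-type and 4 E47KO mice. The last livers were taken 1 h after Dex was injected (1 mg/kg), from 3 mice that lacked E47 only in cells expressing albumin-Cre, that is hepatocytes (Albcre/+;E47fl/fl), and 3 Cre-negative littermates, of which 1 was Alb+/+;E47fl/+ and 2 were Alb+/+;E47fl/fl. Albumin-Cre acts in hepatocytes and not in macrophages, whereas the E47-/- allele is carried by all cells. The animals were on a C57BL/6 background and 10 to 16 weeks old per the study's methods.

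Kupffer cells are the resident macrophages of the liver and line its sinusoids, where they clear bacteria, lipoproteins and aged red cells from portal blood. They share a core macrophage program with macrophages of other tissues, maintained by the growth factor receptor Csf1r and the lineage factor PU.1, and add liver-specific genes such as Clec4f. Glucocorticoids are known to act on macrophages directly, and Cd163 and Mrc1 are among the genes they are known to raise there.

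Promoter sequences are shown for the 3 Kupffer cell genes and for Retnla, because these 4 genes set livers after 3 weeks of Dex apart from WAT and muscle. Each line gives the bases upstream of the annotated gene start, 5′ to 3′ on the gene's own strand, from RefSeq (GRCm38.p6), and capitals mark the PU.1 core GAGGAA or its reverse complement TTCCTC.
Clec4f, chr6:83656188-83656366, minus strand: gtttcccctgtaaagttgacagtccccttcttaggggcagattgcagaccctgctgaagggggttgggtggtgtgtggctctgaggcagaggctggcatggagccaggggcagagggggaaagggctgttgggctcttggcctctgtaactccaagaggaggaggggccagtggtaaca
Marco, chr1:120505025-120505274, minus strand: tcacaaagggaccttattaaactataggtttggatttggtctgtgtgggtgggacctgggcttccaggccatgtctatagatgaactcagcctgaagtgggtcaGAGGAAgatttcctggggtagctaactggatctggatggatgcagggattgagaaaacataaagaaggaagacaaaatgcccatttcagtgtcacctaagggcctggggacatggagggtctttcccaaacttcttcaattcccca
Cd5l, chr3:87357631-87357880, plus strand: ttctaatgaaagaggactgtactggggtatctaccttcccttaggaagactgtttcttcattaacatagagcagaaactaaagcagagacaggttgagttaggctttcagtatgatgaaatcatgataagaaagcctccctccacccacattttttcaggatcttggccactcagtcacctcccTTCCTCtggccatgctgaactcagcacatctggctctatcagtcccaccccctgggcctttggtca
Retnla, chr16:48842359-48842550, plus strand: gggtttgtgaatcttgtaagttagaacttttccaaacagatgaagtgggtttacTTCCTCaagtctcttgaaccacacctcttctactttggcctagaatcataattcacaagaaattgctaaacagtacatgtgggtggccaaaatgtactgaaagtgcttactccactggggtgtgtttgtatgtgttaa
RefSeq windows from 250 bases before to 50 bases after the start were found for 7 of the 10 genes. The PU.1 core occurred in 5 of the 7 (Cd68, Mrc1, Marco, Cd5l and Retnla) and in 28.3% of all 32851 promoters. The E-box CAGGTG occurred in 0 of the 7 and in 20.2% of all promoters, and the E-box CAGCTG in 1 (Cd68) and in 16.3%. The glucocorticoid half-site TGTTCT occurred in 2 (Cd163 and Clec4f) and in 19% of all promoters. Both strands were searched and the 4 motifs do not contain each other. These matches are descriptions of letters in a short window.

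The libraries held 15.5 M to 54.6 M reads counted in genes (M, mega), with 15.5 M to 21.4 M in the 1 h and Dex livers and 30.9 M to 54.6 M in the others. Levels are given as CPM, counts per M reads after TMM scaling over all 39 libraries, and comparisons between genes as CPM per kb of exon. Hepatocyte marker genes summed to 84020 CPM or more in every liver, adipocyte markers to 28970 CPM or more in every WAT library, and skeletal muscle markers to 137300 CPM or more in every muscle library. The count of Tcf3 covers the whole gene, which also encodes E12, and it did not separate the genotypes (11.9 to 18.5 CPM in untreated wild-type livers, 11.7 to 14.1 in untreated E47KO livers). Summed B cell markers, a cell type that depends on E47, were 2.29 to 4.90 CPM in untreated wild-type livers and 0.280 to 0.888 CPM in untreated E47KO livers. The untreated, Dex, Cort and 1 h livers were separate experiments, so that treatment and experiment cannot be told apart in comparisons between them. In bulk tissue, fewer cells of a type and less RNA per cell cannot be told apart.

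The first question was how the genes divide between liver, WAT and muscle, which were sequenced from Dex-treated mice of both genotypes. Per the study's methods, muscle and fat RNA was extracted with Qiazol before the RNeasy kit, and liver RNA with the kit alone. Depth also differed, at 17.5 M to 21.4 M in liver, 34.5 M to 43 M in WAT and 40.4 M to 46 M in muscle. Tissue and handling therefore cannot be told apart in comparisons with liver. The Kupffer cell genes were highest in liver, and most of the macrophage genes found in all tissues were highest in WAT.

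**Figure D1:**
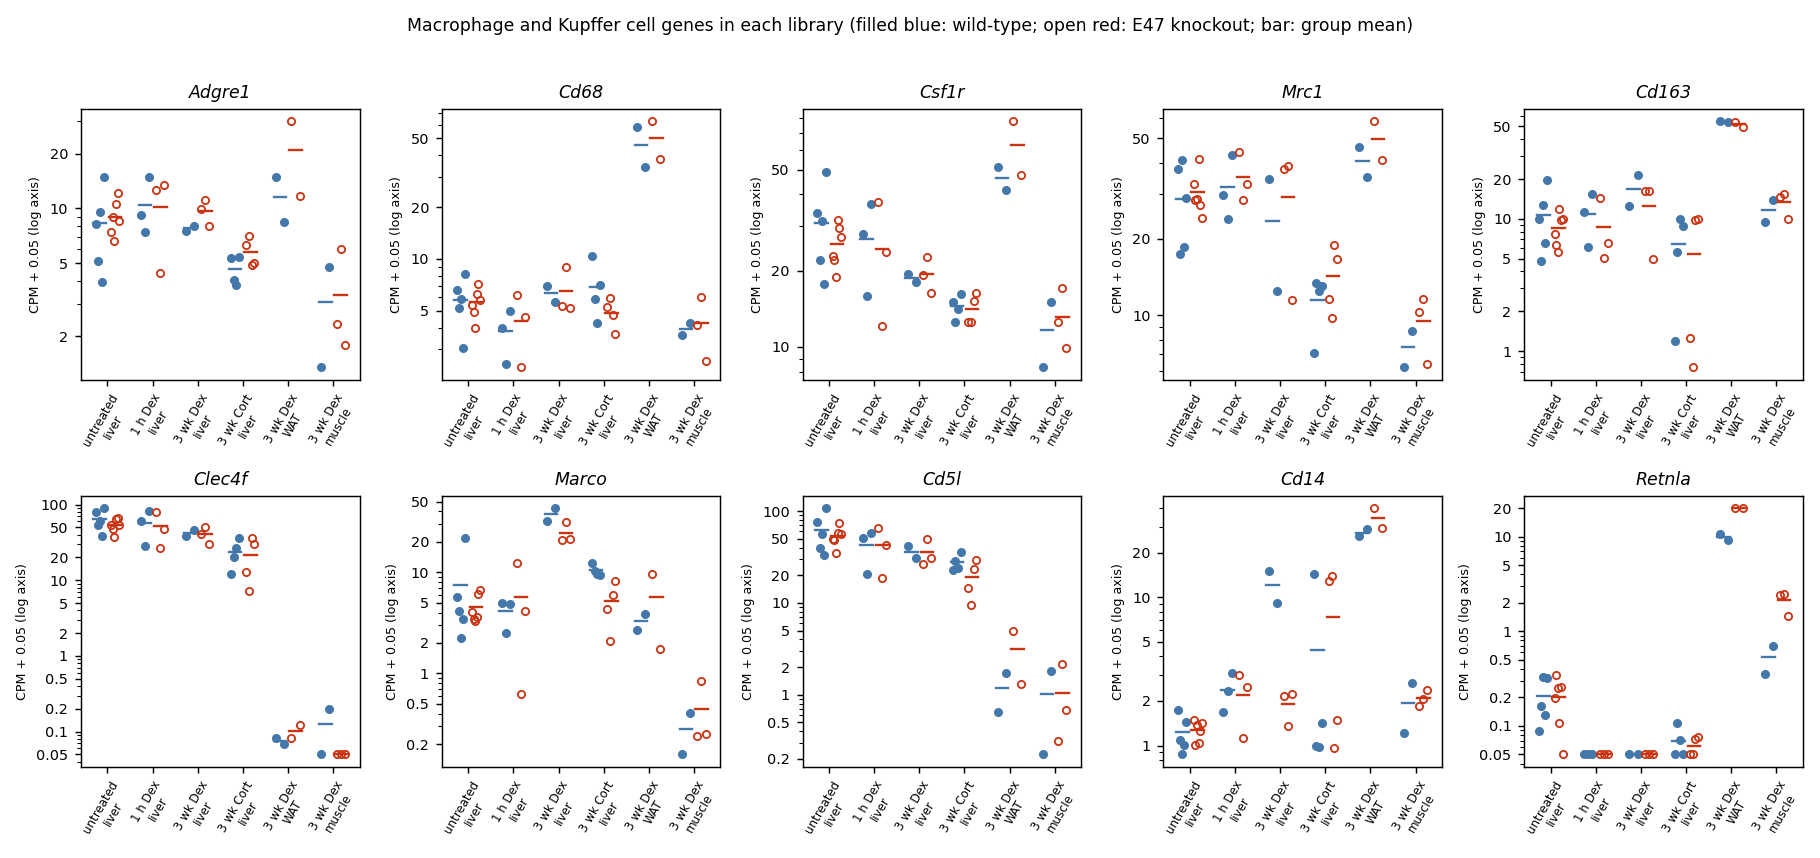
Levels of the 10 genes in each of the 39 libraries (filled blue points wild-type, open red points E47 knockout, bars group means; log axes of CPM + 0.05, so that 0 counts sit at 0.05) by tissue and treatment. Clec4f was at 29.96 CPM or more in every Dex liver and at 0.152 CPM or less in every WAT and muscle library, and Retnla was at 9.06 CPM or more in every WAT library and at 0 in every Dex and 1 h liver.

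Clec4f (chr6:83644542-83656187, minus strand), a C-type lectin restricted to Kupffer cells in mice, was at 38.3 and 45.9 CPM in the wild-type and 41.2, 50.3 and 29.96 CPM in the E47KO Dex livers. Its raw counts were 2 and 1 in wild-type WAT, 2 and 5 in E47KO WAT, 0 and 6 in wild-type muscle and 0 in each of the 3 E47KO muscles. The liver mean of 41.1 ± 7.73 CPM (SD, n = 5) was 1024 times the pooled WAT level (exact Poisson 95% interval 557 to 2136, from 10 counts) and 1492 times the pooled muscle level (685 to 4066, from 6 counts), intervals that cover counting error only. Of all genes, 75.4% were called different between liver and WAT and 76.4% between liver and muscle at an adjusted p under 0.05, so that a call by itself did not set any of the 10 genes apart from the rest. Clec4f was called in both, but its WAT and muscle counts were too low to pass the low-count filter by themselves. It entered the tests through the liver libraries, so that these calls are no separate evidence.

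Cd5l (chr3:87357881-87371073, plus strand), a secreted macrophage protein that binds lipids and supports survival of macrophages, was at 41.9 and 30.5 CPM in wild-type and 26.7, 49.8 and 30.8 CPM in E47KO Dex livers. It was at 0.602 and 1.67 CPM in wild-type WAT, 4.95 and 1.24 in E47KO WAT, 0.173 and 1.75 in wild-type muscle and 0.262, 2.12 and 0.633 in E47KO muscle. No WAT or muscle library reached the lowest liver. Marco (chr1:120474538-120505024, minus strand), a class A scavenger receptor for bacteria and particles, was at 31.8 and 42.9 CPM in wild-type and 20.6, 31.1 and 21.5 CPM in E47KO Dex livers. Its WAT values were 2.66 and 3.86 CPM in wild-type and 9.54 and 1.68 in E47KO mice, and its muscle values ran from 0.108 to 0.787 CPM. Marco lay above WAT without overlap in Dex livers only. Its ranges in untreated (2.21 to 21.9 CPM), 1 h (0.577 to 12.3 CPM) and Cort livers (2.06 to 12.2 CPM) overlapped that of WAT. The liver-WAT difference was 4.24 ± 0.65 on the log2 scale for Cd5l and 2.79 ± 0.46 for Marco (edgeR adjusted p 6.76e-05 and 1.37e-04), and the liver-muscle difference 5.10 ± 0.66 and 6.53 ± 0.58 (1.33e-05 and 4.00e-07). Without the E47KO WAT of replicate 2, which was the highest WAT library for both genes, the liver-WAT values were 4.88 and 3.65. Without the wild-type muscle of replicate 2 the liver-muscle value of Cd5l was 6.29. WAT exceeded muscle for Marco by 3.74 ± 0.57 (5.87e-05; 2.88 without the same E47KO WAT), whereas the WAT-muscle difference of Cd5l was 0.86 ± 0.65 with an adjusted p of 0.244.

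Cd68, a lysosomal glycoprotein of phagocytes (chr11:69664213-69666153, minus strand), showed the reverse order. It was at 57.8 and 34.0 CPM in wild-type and 62.8 and 38.1 CPM in E47KO WAT, against 5.18 to 8.96 CPM in the 5 Dex livers and 2.51 to 5.97 CPM in the 5 muscles. All WAT libraries lay above all livers and muscles. The liver-WAT difference was -2.94 ± 0.28 and the WAT-muscle difference 3.49 ± 0.28 on the log2 scale (edgeR adjusted p 1.00e-06 and 1.89e-07), while liver and muscle differed by 0.55 ± 0.27 (adjusted p 0.0813). With the mouse as a block, which used the 3 mice that gave both liver and muscle, the liver-muscle difference of Cd68 was 0.57 with an adjusted p of 0.0158.

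Csf1r, the receptor for the macrophage growth factors Csf1 and Il34 on chromosome 18, was at 51.3 and 41.4 CPM in wild-type and 77.7 and 47.8 CPM in E47KO WAT, at 16.3 to 22.5 CPM in Dex livers and at 8.26 to 17.1 CPM in muscles. Its exons overlap those of Hmgxb3 on the opposite strand by 2588 bases, and the counts used here did not separate the strands. Csf1r was lower in liver than in WAT (-1.53 ± 0.22, edgeR adjusted p 3.42e-05) and higher in WAT than in muscle (2.04 ± 0.22, 2.39e-06). The liver-muscle difference was 0.51 ± 0.21 with an adjusted p of 0.0403, the ranges overlapped, and the call was lost within either genotype. It was also lost without any 1 of 7 libraries (both wild-type livers, E47KO livers 1 and 2, wild-type muscle 1 and E47KO muscles 1 and 3), with values from 0.32 to 0.54.

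Adgre1, which encodes the surface marker F4/80 (chr17:57358691-57483527, plus strand), was at 14.7 and 8.40 CPM in wild-type and 30.1 and 11.6 CPM in E47KO WAT, at 7.49 to 11.1 CPM in Dex livers and at 1.297 to 5.97 CPM in muscles. Liver and WAT overlapped, and the difference of -0.87 ± 0.43 did not pass (edgeR adjusted p 0.0796), although it did with library totals in place of TMM (-1.68, 3.04e-03). Liver exceeded muscle by 1.34 ± 0.43 (0.0124) and WAT exceeded muscle by 2.22 ± 0.44 (5.00e-04). Without the wild-type muscle of replicate 1, which held 1.297 CPM, the liver-muscle call of Adgre1 was lost (1.00, 0.0525), and without that of replicate 2 the value was 1.94 (2.68e-03).

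The endocytic receptors differed from each other. Cd163 was highest in WAT, whereas Mrc1 was not called different between liver and WAT. Cd163 (chr6:124304656-124330527, plus strand), which takes up haemoglobin-haptoglobin complexes, was at 54.8 and 53.9 CPM in wild-type and 54.3 and 49.7 CPM in E47KO WAT, a spread of 53.2 ± 2.33 (SD, n = 4). It was at 4.89 to 21.2 CPM in Dex livers and 9.47 to 15.3 CPM in muscles. The liver-WAT difference was -1.91 ± 0.30 and the WAT-muscle difference 2.01 ± 0.29 (edgeR adjusted p 7.90e-05 and 4.23e-05), while liver and muscle differed by 0.10 ± 0.28 (0.760). Mrc1 (chr2:14229392-14332057, plus strand), the mannose receptor of macrophages and of liver sinusoidal endothelium, was at 46.3 and 35.1 CPM in wild-type and 58.4 and 41.0 CPM in E47KO WAT and at 6.16 to 11.5 CPM in muscles. In Dex livers Mrc1 fell into high libraries at 34.5, 37.6 and 38.9 CPM and low libraries at 12.4 (wild-type replicate 2) and 11.4 CPM (E47KO replicate 3). The names of the deposited files carry animal numbers, and in Dex livers these fell into 2 ranges that matched the split: the 3 high libraries were in the lower range and the 2 low libraries in the upper. Summed endothelial markers ran from 81.9 to 235.7 CPM in the same 5 livers, and their part in the Mrc1 level was not tested. Mrc1 was higher in liver than in muscle (1.55 ± 0.36, 1.75e-03) and in WAT than in muscle (2.35 ± 0.38, 9.19e-05), and its liver-WAT difference of -0.80 ± 0.36 had an adjusted p of 0.0617. With the livers of the lower number range alone, an alternative chosen after seeing the data, the Mrc1 differences were 2.01 from muscle and -0.34 from WAT. These were the livers with high Mrc1, so that the choice by itself raises the liver level.

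Cd14, a co-receptor for bacterial lipopolysaccharide on chromosome 18, was at 25.8 and 29.0 CPM in wild-type and 39.9 and 29.1 CPM in E47KO WAT. It was at 14.9 and 9.05 CPM in wild-type Dex livers, at 2.09, 1.3 and 2.19 CPM in E47KO Dex livers and at 1.17 to 2.58 CPM in muscles. All WAT libraries lay above all livers, and only the wild-type livers lay above all muscles. The differences were -2.73 ± 0.24 for liver against WAT, 3.90 ± 0.24 for WAT against muscle and 1.17 ± 0.24 for liver against muscle (edgeR adjusted p 4.05e-07, 1.81e-08 and 7.01e-04). The liver-muscle value of Cd14 did not hold in both genotypes. It was -0.18 with an adjusted p of 0.563 in E47KO mice, and 1.16 with an adjusted p of 0.199 with the mouse as a block.

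Retnla (chr16:48842551-48844461, plus strand), a secreted protein of alternatively activated macrophages that adipose tissue also expresses, had 0 counts in all 5 Dex livers and all 6 livers of the 1 h experiment. It reached 0 to 3 counts in Cort livers and 0 to 10 counts in untreated livers. The WAT mean of 14.9 ± 5.82 CPM (SD, n = 4) was at least 90.7-fold higher than Dex liver and the muscle mean of 1.43 ± 0.971 CPM (n = 5) at least 8.75-fold higher, taking 3 counts per library as the limit of a count of 0, or 0.164 CPM. WAT exceeded muscle by 3.74 ± 0.25 on the log2 scale (edgeR adjusted p 5.01e-07).

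Between liver and WAT, 3 of the 10 genes were thus higher in liver and 5 lower (33.8% and 41.6% of all genes). Between liver and muscle 7 were higher in liver and 1 lower (36.0% and 40.4% of all genes). Between WAT and muscle 8 were higher in WAT and 0 lower (43.5% and 33.8% of all genes, 77.3% together). The counts against liver include Clec4f, which entered the tests only through liver, and Retnla, which entered them only through the other tissues. The medians of the 10 genes were -1.20, 1.26 and 2.28 on the log2 scale, against -0.19, -0.11 and 0.25 for all genes. With library totals the all-gene medians of the 2 comparisons with WAT moved to -0.98 and 1.05, and no called gene of the 10 changed its direction. Per kb of exon, Cd5l (17.7), Clec4f (16.6) and Marco (15.4 CPM per kb) led in Dex livers and Cd68 (38.3), Retnla (24.8) and Cd14 (17.9 CPM per kb) in WAT. In untreated livers Marco stood at 3.03 CPM per kb, behind Cd5l (28.3), Clec4f (23.8), Csf1r (4.81), Mrc1 (4.66) and Cd68 (4.48), of which the last 3 differed by less than the spread between livers.

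Of 18 further genes shared by macrophages, 15 were lower and 0 higher in liver than in WAT, led by Lgals3 (-5.24) and Lyz2 (-4.19), 14 were higher and 2 lower in liver than in muscle, and 18 of 18 were higher in WAT than in muscle. Of 9 further Kupffer cell genes, 3 were higher in liver than in WAT, with the iron exporter Slc40a1 at 4.05 and Clec1b at 3.13, and 2 were lower, with Folr2 at -3.24, while 8 of 9 were higher in liver than in muscle. The partners of Cd14 in lipopolysaccharide sensing did not follow Cd14 as a group: 4 of 7 were higher in liver than in WAT (Lbp at 1.66) and 2 lower (Tlr4 at -2.97). Of 9 tested genes of a list for alternatively activated and tissue-resident macrophages, 7 were lower and 1 higher in liver than in WAT, and 9 of 9 were higher in WAT than in muscle. The list also holds Retn, used here as an adipocyte marker, and Retnlg, used here as a neutrophil marker. Its counts are therefore not counts of macrophage genes alone. Neutrophil markers summed to 19.8 to 58.3 CPM in WAT and to 1.09 to 5.97 CPM in Dex livers, and their part in the WAT levels was not tested.

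The second question was how the genes stood in livers after 3 weeks of either glucocorticoid. Retnla was too low to be tested there. In Cort livers 5 of the other 9 genes were lower than in untreated livers and 1 was higher, where 25.2% of all genes were called lower and 27.2% higher (52.4% together). In Dex livers 1 was lower and 2 were higher, where 26.4% were called lower and 25.0% higher (51.4% together). Both comparisons used the same 11 untreated livers.

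**Figure D2:**
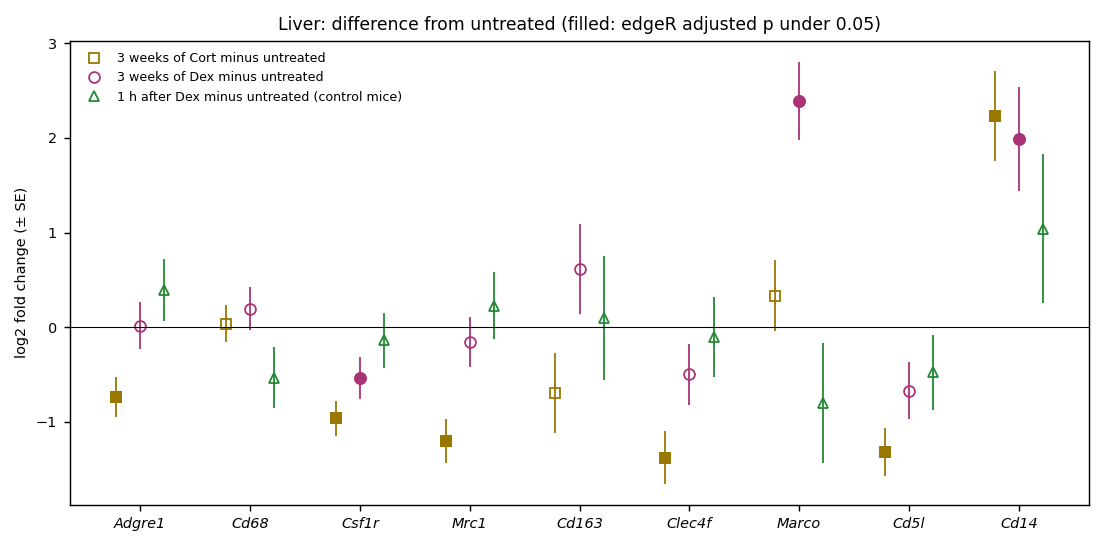
Log2 differences of the 9 tested genes from untreated livers (vertical axis; squares 3 weeks of Cort, circles 3 weeks of Dex, triangles control livers 1 h after Dex; bars 1 SE; filled symbols have an edgeR adjusted p under 0.05). Marco stood 2.39 higher after Dex and 0.33 higher after Cort, and Clec4f 0.50 lower after Dex and 1.38 lower after Cort, than in untreated livers.

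Among Marco, Clec4f and Cd5l, only Marco was called higher than in untreated livers by the main test, and only after Dex. Untreated livers ran from 2.21 CPM over a median of 4.02 to 21.9 CPM, Dex livers were at 20.6 to 42.9 CPM, and Cort livers ran from 2.06 over 8.72 to 12.2 CPM. Only the untreated wild-type liver of replicate 5, at 21.9 CPM, reached into the Dex range. The Dex difference was 2.39 ± 0.41 on the log2 scale (edgeR adjusted p 2.84e-05) and the Cort difference 0.33 ± 0.37 (0.470), and Dex livers exceeded Cort livers by 2.06 ± 0.45 (5.81e-04).

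Clec4f ran from 37.8 CPM over a median of 54.0 to 89.2 CPM in untreated livers, from 29.96 over 41.2 to 50.3 CPM after Dex and from 7.08 over 23.5 to 36.1 CPM after Cort. No Cort liver reached the lowest untreated liver. The Cort difference was -1.38 ± 0.28 (edgeR adjusted p 1.80e-04) and the Dex difference -0.50 ± 0.32 (0.199). Cd5l ran from 33.5 over 55.8 to 107 CPM in untreated livers, from 26.7 over 30.8 to 49.8 CPM after Dex and from 9.53 over 23.6 to 35.9 CPM after Cort, so that untreated and Cort ranges met only at their edges. Its Cort difference was -1.32 ± 0.26 (1.3e-04) and its Dex difference -0.67 ± 0.30 (0.0664).

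Of the genes shared by all macrophages, Adgre1 ran from 3.93 over 8.48 to 14.7 CPM in untreated and from 3.77 over 5.13 to 6.98 CPM in Cort livers, and Dex livers lay at 7.49 to 11.1 CPM. It was lower after Cort (-0.74 ± 0.21, edgeR adjusted p 4.93e-03) and at 0.014 ± 0.25 after Dex (0.969). Csf1r ran from 17.6 over 27.2 to 49.0 CPM in untreated and from 12.5 over 14.5 to 16.3 CPM in Cort livers, with no overlap, and was lower after Cort (-0.96 ± 0.19, 1.19e-04). After Dex it was lower by the main test (-0.54 ± 0.22, 0.0444), a call that was lost with other scalings, within either genotype, with a replicate block (-0.31) and without any 1 of 10 libraries (both wild-type Dex livers, E47KO Dex livers 1 and 3, untreated wild-type livers 1, 3 and 5 and untreated E47KO livers 4, 5 and 6), with values from -0.61 to -0.42. Cd68 did not pass: its medians were 5.73 CPM untreated, 5.58 CPM after Dex and 5.49 CPM after Cort, with differences of 0.20 ± 0.23 and 0.036 ± 0.19 (0.498 and 0.890).

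Among the endocytic receptors, Mrc1 ran from 17.4 over 28.7 to 41.3 CPM in untreated and from 7.01 over 12.7 to 18.9 CPM in Cort livers, ranges that overlapped at their edges. It was lower after Cort (-1.21 ± 0.23, edgeR adjusted p 1.10e-04) and at -0.16 ± 0.27 after Dex (0.645). With the Dex livers of the lower number range alone, those with high Mrc1 and chosen after seeing the data, the Dex difference was 0.30. Endothelial markers summed to 80.7 to 135.6 CPM in Cort and 102.2 to 192.5 CPM in untreated livers, and their part in the Mrc1 difference was not tested. Cd163 did not pass in either comparison (-0.70 ± 0.42 after Cort and 0.61 ± 0.48 after Dex, adjusted p 0.167 and 0.292). Cd14 was at 0.820 to 1.70 CPM in the 11 untreated livers. It was higher after Cort (2.23 ± 0.48, 3.63e-04) and after Dex (1.99 ± 0.55, 4.00e-03), but in each treatment the rise lay in some libraries only. After Dex these were the wild-type livers at 14.9 and 9.05 CPM, and within E47KO mice the Dex difference was 0.63 with an adjusted p of 0.0593. After Cort these were 3 of the 8 livers, at 14.2 CPM in 1 wild-type mouse and at 12.9 and 13.9 CPM in 2 E47KO mice, against 0.905 to 1.43 CPM in the other 5. Without that wild-type mouse the Cort difference of Cd14 was 1.23 (7.79e-03).

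Directly compared, 5 of the 9 genes were higher in Dex than in Cort livers and 0 lower, where 19.6% of all genes were called higher and 23.6% lower (43.2% together). Beside Marco these were Mrc1 (1.05 ± 0.28, edgeR adjusted p 3.21e-03), Adgre1 (0.76 ± 0.26, 0.0207), Clec4f (0.88 ± 0.33, 0.0308) and Cd163 (1.31 ± 0.50, 0.0374). Of these 5, Marco alone kept its call with every single library left out. The calls of Cd163 and Clec4f were lost without any 1 of 7 and of 8 libraries, that of Mrc1 without wild-type Dex liver 1 (0.59, 0.141), where Mrc1 was high, and that of Adgre1 without wild-type Dex liver 1 (0.77, 0.0517) or 2 (0.74, 0.0631). The 3 Dex livers of the lower number range, chosen after seeing the data, were those with high Mrc1, a choice that by itself raises the Mrc1 difference. With these alone, Mrc1 stood at 1.52 and Marco at 1.99, and the calls of Adgre1, Cd163 and Clec4f were lost. In the control livers 1 h after Dex, 0 of the 9 genes differed from untreated wild-type livers, where 20.4% of all genes were called. Their differences ran from -0.81 (Marco) to 1.04 (Cd14), 0 had an unadjusted p under 0.05, and DESeq2 also called 0. Among all 16227 genes, 5446 had an unadjusted p under 0.05 and DESeq2 called 3558. These controls came from the floxed line, so that line and treatment cannot be told apart.

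Of the 18 further genes shared by macrophages, 11 were lower and 2 higher in Cort than in untreated livers, with the microglial and macrophage protein Aif1 at -1.91 and the pore-forming Mpeg1 at -1.41, and 6 were lower and 0 higher in Dex livers, with Mpeg1 at -1.39. Of the 9 further Kupffer cell genes, 6 were lower and 2 higher after Cort, with C6 at -1.60, the phosphatidylserine receptor Timd4 at -1.54 and the complement receptor Vsig4 at -1.68. After Dex 2 were lower and 3 higher, with haem oxygenase Hmox1 at 1.44 and Slc40a1 at 0.57. Of 8 genes of the Csf1r axis and the macrophage lineage, 1 was higher and 2 lower after Cort (Csf1 at 0.71, Il34 at -0.92) and 1 higher and 3 lower after Dex (Maf at 0.97, Csf1 at -0.83). Of 7 partners of Cd163 in haemoglobin clearance, 3 were higher and 1 lower after Cort and 4 and 1 after Dex. The list for alternative activation, which is not of macrophage genes alone, had 6 tested genes. Of these, 4 were higher and 2 lower after Cort and 3 and 0 after Dex, with the chitinase-like Chil3 at 5.65 and 5.17. Of 6 monocyte genes 1 was lower in each (Plac8 at -0.97 after Cort). Among 6 genes of lipid-associated macrophages 3 were higher and 0 lower after Cort, with Gpnmb at 5.22, Mmp12 at 3.31 and Trem2 at 1.63. Lbp, the serum protein that hands lipopolysaccharide to Cd14, was higher after Cort (1.37) and after Dex (1.55).

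The 8 Cort livers divided by the animal numbers in the names of their files, which fell into a low range (2 to 15) and a high range (3-digit numbers). The low-numbered animals, 1 wild-type and 2 E47KO mice, held the 3 livers with high Cd14, and the high-numbered animals the other 5. This division was made after the values had been seen, so that the values below describe it and its tests are no independent evidence.

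**Figure D3:**
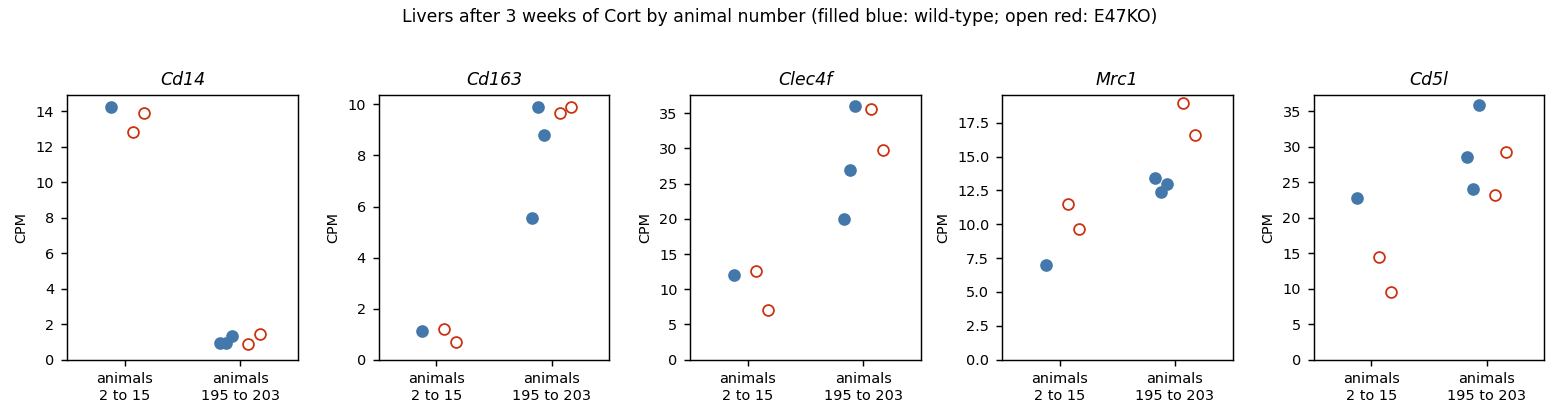
Levels of 5 genes in the 8 Cort livers (vertical axes, CPM) by animal-number range; filled blue points are wild-type and open red points E47KO mice. Low-numbered animals had Cd14 at 12.9 to 14.2 CPM and Cd163 at 0.703 to 1.21 CPM, against 0.905 to 1.43 CPM and 5.55 to 9.90 CPM in high-numbered animals.

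Cd163 was at 1.14 CPM in the wild-type and 1.21 and 0.703 CPM in the E47KO low-numbered animals, and at 5.55, 9.90 and 8.82 CPM in the wild-type and 9.66 and 9.90 CPM in the E47KO high-numbered animals. Clec4f was at 12.0, 12.7 and 7.08 CPM in the first range and at 19.97 to 36.1 CPM in the second. Neither gene overlapped between the ranges. In a fit with genotype as a term, in which 5.42% of all genes were called higher and 4.9% lower in low-numbered animals (10.3% together), Cd14 was higher in low-numbered animals (3.62 ± 0.17, edgeR adjusted p 3.58e-06) and 4 genes were lower: Cd163 (-3.13 ± 0.27), Clec4f (-1.50 ± 0.25), Mrc1 (-0.81 ± 0.10) and Cd5l (-0.79 ± 0.21, adjusted p 0.0468), whose call was lost without any 1 of 7 of the 8 livers (values from -1.12 to -0.59). Adgre1 (0.36 ± 0.14) and Cd68 (0.61 ± 0.19) had adjusted p values of 0.154 and 0.0710. Skeletal muscle markers summed to 0.896 to 1.12 CPM in low-numbered animals and to 139.9 to 192.3 CPM in high-numbered animals, hepatocyte markers to 102700 to 112600 and 119000 to 158900 CPM, and neutrophil markers to 2.37 to 6.20 and 0.736 to 2.67 CPM. The part of these in the differences was not tested.

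Among the other lists, 3 of the 9 Kupffer cell genes were lower in low-numbered animals, with Vsig4 at -1.54, Timd4 at -1.35 and Clec1b at -0.87, and 1 was higher (Hmox1, 1.89). Of 6 lipid-associated macrophage genes 4 were higher and 0 lower, with Gpnmb at 3.57 and Mmp12 at 2.33, and of 17 tested genes shared by macrophages 6 were higher and 4 lower, with Lyz2 at 1.48 and Lgals3 at 2.04. With the high-numbered animals alone, Adgre1 (-0.89), Csf1r (-0.89), Mrc1 (-0.95), Clec4f (-0.95) and Cd5l (-1.05) were still lower than in untreated livers (edgeR adjusted p 3.63e-03 to 9.15e-03), while Cd14 was at -0.084 (0.785). Set against the same 5 livers, Dex livers were higher in Cd14 (2.07 ± 0.27, 2.87e-06), where the test with all 8 Cort livers gave -0.24 ± 0.59 (0.765), and the Dex-Cort calls of Cd163 (0.70, 0.147) and Clec4f (0.45, 0.221) were lost. These 5 were the Cort livers with low Cd14 and higher Cd163 and Clec4f, so that the choice by itself moves all these values. High Cd14 in Dex livers was seen in wild-type mice only (14.9 and 9.05 CPM, against 1.3 to 2.19 CPM in E47KO mice).

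The third question was whether loss of E47 changed these genes. None of the 9 genes tested in each of the 6 genotype comparisons had an edgeR adjusted p under 0.05. Calls were rare among all genes too, at 0.00752% in Dex liver, 0.0274% in Cort liver, 0.0% at 1 h, 0.0288% in untreated liver, 0.0% in WAT and 0.0134% in muscle. Of the 9 genes, 2 had an unadjusted p under 0.05 in Dex liver, 1 in Cort liver, 0 at 1 h, 0 in untreated liver, 1 in WAT and 1 in muscle. Among all genes, such a p was found for 409 of 13300 in Dex liver and 1435 of 14588 in Cort liver. In WAT it was found for 699 of 16289 and in muscle for 590 of 14962. DESeq2 called 1 of the 9 genes in Dex liver (Cd14), 1 in WAT and 1 in muscle (Retnla), and 0 in the other 3. Its calls among all genes were 24 in Dex liver, 37 in WAT and 93 in muscle. In data simulated on these libraries, the share of 4-fold changes called ran from 77% (Dex liver) to 94% (untreated liver) and that of 2-fold changes from 29% (Dex liver) to 71% (1 h). Each simulation changed 100 genes drawn from all tested genes by each fold, and 7 to 19 unchanged genes were called. With so many changed genes the adjustment is milder than in the real fits, where few genes were called, so that these shares do not carry over to the 9 genes.

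Cd14 in Dex liver had the smallest adjusted p of these. The wild-type livers were at 14.9 and 9.05 CPM and the E47KO livers at 2.09, 1.3 and 2.19 CPM, without overlap. The difference of -2.69 ± 0.32 on the log2 scale, a level 6.44-fold lower in E47KO, had an edgeR adjusted p of 0.228. DESeq2 gave 7.16e-09, and edgeR without the filter on low counts gave 2.40e-05. Untreated livers, by contrast, were at 0.820 to 1.70 CPM in wild-type and 0.957 to 1.44 CPM in E47KO mice (0.053 ± 0.22, adjusted p 0.986). In Cort livers the difference was in the other direction and smaller than its error (0.74 ± 1.13, adjusted p 0.885), with the 3 high livers in both genotypes, and it was 0.025 with the animal-number range as a term (0.962). The test of the genotype effect in Dex against untreated liver gave -2.74 ± 1.15 (adjusted p 1.00), and that in Cort against untreated liver 0.71 ± 0.96 (0.915). Against WAT and muscle of the same treatment the genotype effect in liver differed by -3.04 ± 0.46 and -2.83 ± 0.48, with edgeR adjusted p of 0.484 and 0.289, and DESeq2 called both (1.29e-05 and 3.53e-05). Of all genes, 0.0% were called in each of these tissue interactions and 0.00616% in each interaction with untreated liver, and of the 10 or 9 genes tested edgeR called 0 in all 4, with an unadjusted p under 0.05 for 1, 2, 0 and 1 of them in liver against WAT, liver against muscle, Cort and Dex. The second gene in liver against muscle was Clec4f, which had 6 counts in all muscles. Without wild-type muscle 2 edgeR called Cd14 in liver against muscle (-3.50, adjusted p 0.0300).

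Marco values in E47KO livers lay below the wild-type values in both chronic treatments, without overlap, but the differences did not pass the test. Dex livers were at 31.8 and 42.9 CPM in wild-type and 20.6, 31.1 and 21.5 CPM in E47KO mice (-0.60 ± 0.23, edgeR adjusted p 0.999), and Cort livers at 12.2, 10.3, 9.62 and 9.37 CPM and at 4.33, 2.06, 5.96 and 8.07 CPM (-1.02 ± 0.34, 0.372). Within the high-numbered Cort animals the difference was -0.47 ± 0.16 (0.615). In untreated livers the ranges of Marco overlapped (2.21 to 21.9 CPM in wild-type, 3.26 to 6.68 CPM in E47KO, -0.73 ± 0.51, 0.965). The Marco difference was in the other direction at 1 h (0.48 ± 0.76), in WAT (0.77 ± 0.78) and in muscle (0.82 ± 0.82), and did not pass there either. The other 7 genes tested in liver had differences from -0.54 (Cd5l, Cort) to 0.33 (Adgre1, Dex and Cort; Mrc1, Dex), and adjusted p of 0.600 or more. With the animal-number range as a term in Cort liver 0 of the 9 genes passed, and the smallest adjusted p was that of Mrc1 (0.51 ± 0.10, 0.0636). Clec4f, for example, was at -0.046 in Dex liver (95% interval -0.49 to 0.40), at -0.15 in Cort liver (-1.14 to 0.84), at -0.13 at 1 h (-1.01 to 0.74) and at -0.24 in untreated liver (-0.63 to 0.16).

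**Figure D4:**
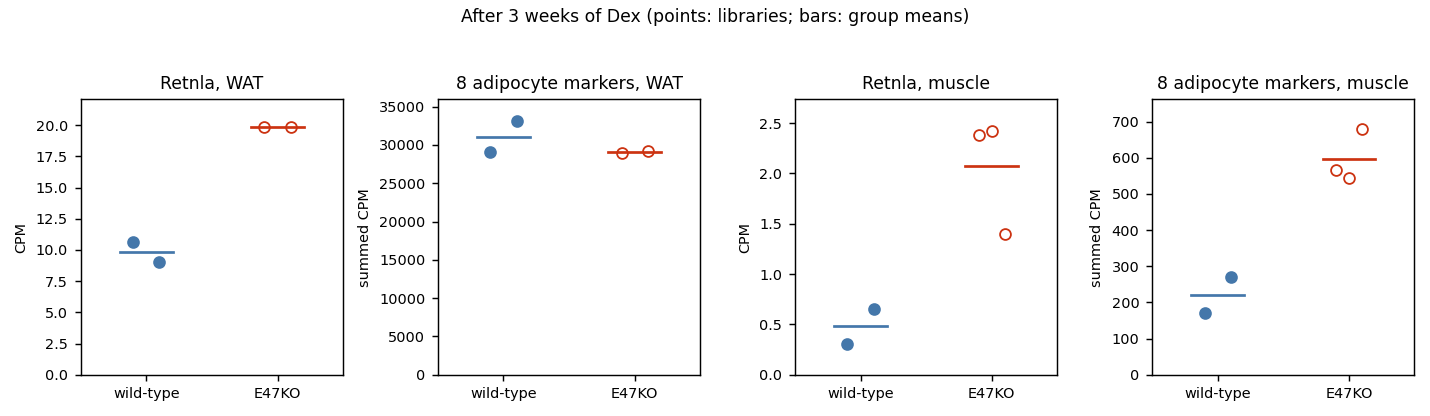
Retnla and the sum of 8 adipocyte markers in WAT (left pair of panels) and muscle (right pair) after 3 weeks of Dex (vertical axes, CPM; points libraries, bars group means) by genotype. In muscle the E47KO libraries were higher in both measures, and in WAT they were higher in Retnla (19.9 CPM against 9.06 and 10.7 CPM) but not in adipocyte markers.

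Retnla values in E47KO libraries lay above all wild-type values in WAT and in muscle, but these differences did not pass the edgeR test either. WAT held 10.7 and 9.06 CPM in wild-type and 19.9 and 19.9 CPM in E47KO mice (1.00 ± 0.13 on the log2 scale, edgeR adjusted p 0.732, DESeq2 1.40e-04). Muscle held 0.303 and 0.658 CPM in wild-type and 2.38, 2.43 and 1.40 CPM in E47KO mice (2.15 ± 0.45, edgeR 0.588, DESeq2 2.25e-03; 2.75 without wild-type muscle 2). Adipocyte markers moved with Retnla in muscle, where the 8 genes summed to 170.8 and 271.6 CPM in wild-type and 543.7 to 679.1 CPM in E47KO mice, none at 0 in every library, and Adipoq was at 4.995 and 19.9 against 45.8 to 67.1 CPM. Their part in the muscle difference was not tested. In WAT these markers summed to 29010 and 33060 CPM in wild-type and 28970 and 29210 CPM in E47KO mice. Neutrophil markers did move with Retnla in WAT, at 19.8 and 34.3 CPM in wild-type and 49.6 and 58.3 CPM in E47KO mice, and their part was not tested. In WAT 8 of the 9 tested genes, and in muscle 9 of 9, had positive differences, with medians of 0.43 and 0.20 against 0.0025 and 0.015 for all genes. The animal numbers of the WAT libraries fell into 2 ranges with 1 mouse of each genotype. In both, 6 of the 10 genes were higher in the E47KO mouse (Adgre1, Cd68, Csf1r, Mrc1, Cd14 and Retnla), 1 was lower (Cd163), and 3 differed in direction (Clec4f, Marco and Cd5l). The genes were measured in the same few mice and are not independent, so that these counts of directions, in WAT and in muscle, are no test. With the number range as a term, a fit with 4 libraries, 0 of the 9 tested genes passed, and Adgre1 stood at 0.75 ± 0.15 (edgeR adjusted p 0.662), Csf1r at 0.40 ± 0.12 (0.715), Mrc1 at 0.27 ± 0.09 (0.715) and Retnla at 1.01 ± 0.11 (0.487).

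Finally, the co-variation of the genes was described across the 30 livers, as Pearson correlation of log2 CPM after subtracting each group's mean. These livers came from separate experiments and differed in library depth and possibly in dissection, and the correlations are descriptions. Retnla was left out because its level was under 1 CPM. The 36 pairs of the other 9 genes had a median r of 0.55, against -0.0004 for all pairs of 12023 genes. Without Cd14 the median was 0.62, and the 8 pairs with Cd14 ran from -0.73 (with Cd163) to 0.48 (with Cd68).

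**Figure D5:**
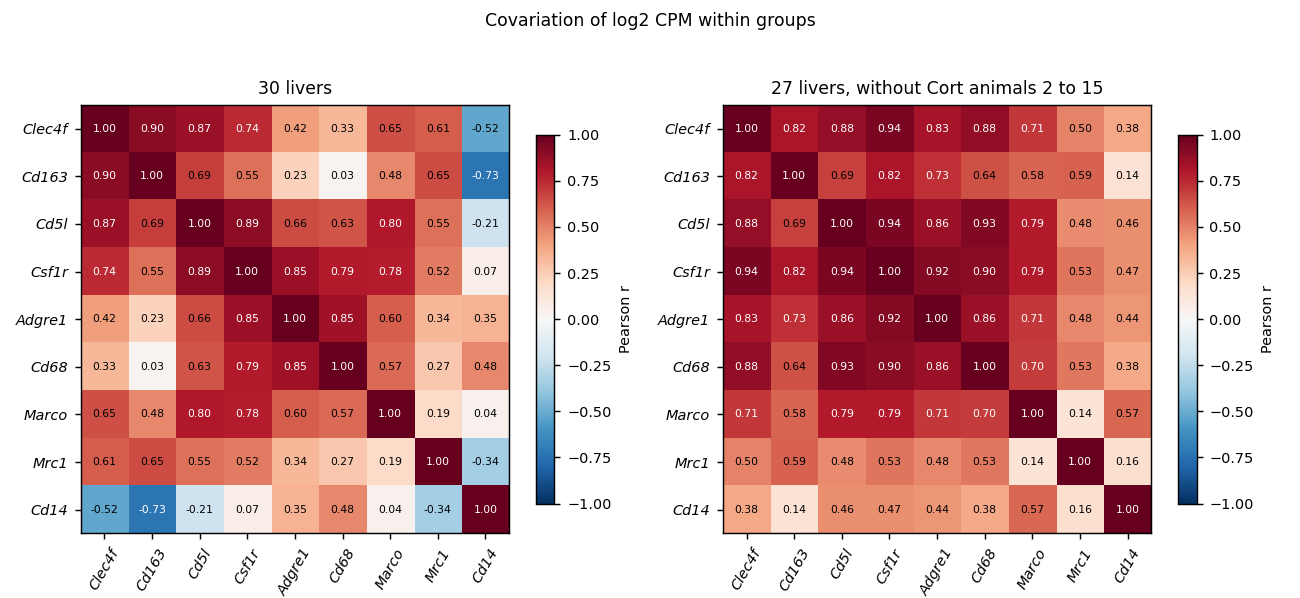
Pearson r of within-group deviations of log2 CPM between 9 genes across 30 livers (left) and across the 27 livers that leave out the low-numbered Cort animals (right). The Cd14 pairs had a median of -0.082 on the left and 0.41 on the right.

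The highest pairs were Cd163 with Clec4f (0.90), Csf1r with Cd5l (0.89) and Clec4f with Cd5l (0.87). Without the low-numbered Cort animals the median of the 36 pairs was 0.69, and Cd163 with Cd14 was at 0.14. In the 11 untreated livers alone it was 0.63, with Cd68 and Clec4f at 0.97. Within groups, the untreated wild-type liver of replicate 5 was the highest of its 5 for Adgre1, Cd68, Csf1r, Cd163, Clec4f, Marco and Cd5l, and the AlbCre E47KO liver of replicate 2 at 1 h the lowest of its 3 for the same 7 genes.

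Over all genes, the 3 most like Clec4f were Vsig4 (0.96), C1qa (0.94) and Lilra5 (0.93), and those most like Cd5l were C1qc (0.94), C1qb (0.92) and Treml4 (0.92). Csf1r was most like C1qb (0.91), Treml4 (0.90) and AB124611 (0.89). Adgre1 was most like Clec4a1, Igsf6 and Cybb (0.90 each), Cd68 like Tyrobp (0.90), Laptm5 and Rac2 (0.88 each), Cd163 like Vsig4 (0.92), St3gal5 (0.91) and Clec4f (0.90), and Marco like C1qb (0.83), Clec4n (0.81) and Il18bp (0.80). Mrc1 stood apart from these, with Cd300lg (0.97), Oit3 (0.96) and Adgrf5 (0.96), genes known from endothelium, and so did Cd14, with Slfn2 (0.95), the chemokine Ccl3 (0.90) and the hyaluronan receptor Cd44 (0.89).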

How the data were processed

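RNA was sequenced from 39 mouse tissue samples. The authors aligned the reads with STAR to mm10 and counted them per gene; the submitters' processing notes name STAR 2.4.2a, HTSeq and DESeq2. The deposited files hold raw counts per gene and library, with 20.8% to 36.8% of reads in no gene, and the column of counts that ignores strand was used. In Cort libraries the column for 1 strand held 50.1% of these counts, against 96.9% to 97.7% in the others that had it. Groups came from the labels. Tests used edgeR 4.0.16 in R 4.3.3 (TMM scaling, filterByExpr, quasi-likelihood F-test, Benjamini-Hochberg adjustment over all genes tested, threshold 0.05); DESeq2 1.42.0 was an alternative, with other scalings, no filter, the strand column, 1 genotype, only the groups compared, the range of animal numbers, a replicate block and each library left out. Treatments and interactions were fitted on the groups of both genotypes. The fit was tested on simulated data. The 10 genes and all lists were chosen with earlier results of these data known. Genes from the lists were named by the smallest adjusted p. Libraries of a group carried different animal numbers in the names of the deposited files, and no 2 libraries of a group agreed within sampling noise. In liver and muscle, shared animal numbers paired 3 mice; elsewhere same-numbered samples did not deviate together in every pair (r from -0.41 to 0.78) and shared only a number.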

Additional observations from a re-analysis of the deposited data

Results flagged for a closer look

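In 40 sets of 1 gene in 1 group of 4 to 10 libraries, 3 had a library farther from the others than Dixon's 95% criterion allows, where chance gives about 1 in 20. Cd14 was at 14.2 CPM in wild-type Cort liver 1 against 0.931 to 1.36 CPM in the other 3. Mrc1 was at 7.01 CPM in the same liver against 12.4 to 13.4 CPM. Marco was at 21.9 CPM in untreated wild-type liver 5 against 2.21 to 5.62 CPM in the other 4. The Cort liver was the wild-type one of the low-numbered animals, and the untreated liver was also the highest of its group for Adgre1, Cd68, Csf1r, Cd163, Clec4f and Cd5l.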

How the results depend on the processing

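Results for single genes were followed where the main fit gave an unadjusted p under 0.05, without Clec4f and Retnla in the interactions. Calls gained by other results, such as Cd68 in liver minus muscle with the mouse as a block, are not counted. Of the 56 results followed, 36 kept their direction and their side of the threshold under every alternative run. With each library left out this held in 556 of 607 cases, with 43 calls lost and 8 gained, and under the other alternatives in 375 of 420, with 28 lost, 15 gained and 2 reversed: Cd14 in liver minus muscle was -0.18 within E47KO mice, and Cd14 in Cort minus untreated liver was -0.084 with the high-numbered Cort animals alone, an alternative chosen after seeing the data.

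The number of the genes called moved as follows. DESeq2 called 1 (edgeR 0) in the genotype comparisons of Dex liver, WAT and muscle and in the genotype effect of liver minus WAT and of liver minus muscle, and edgeR without the low-count filter called 1 in the genotype comparison of Dex liver and in both of these interactions. Leaving out each library gave 0 to 2 in the WAT genotype comparison (2 without E47KO WAT 3), 0 to 1 in the interaction of liver minus muscle (1 without wild-type muscle 2) and 2 to 6 in Dex minus Cort (2 without either wild-type Dex liver, against 5 with all). Dex minus untreated liver gave 5 when only its own groups were fitted (7413 of all 15362 genes) and 1 within E47KO mice (5115 of 14449), against 3. Dex minus Cort gave 2 within wild-type mice (3366 of 15109) and 3 within E47KO mice (4041 of 14512). It also gave fewer with the Dex livers of the lower animal-number range alone, chosen after seeing the data. The cause was not tested. With library totals 19 of 120 group levels moved by more than their spread, and with the strand column 2 of 120, both Csf1r in Cort livers. The median correlation was 0.69 without the low-numbered Cort animals and 0.63 in untreated livers, against 0.55.

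Counts over all genes varied more. By genotype they were 1 in Dex liver (0 to 62 under the alternatives, 62 without the low-count filter), 4 in Cort liver (1 to 270), 0 at 1 h (up to 6), 4 in untreated liver (2 to 11), 0 in WAT (up to 37, and 333 without E47KO WAT 3) and 2 in muscle (1 to 93), of which the highest in the last 5 were DESeq2's. The interactions had 0 or 1 called and up to 6 (liver minus WAT), 38 (liver minus muscle), 16 (Cort) and 19 (Dex, without wild-type Dex liver 1). Within wild-type mice 3822 genes were called in Cort minus untreated liver (8502 in both genotypes), 2911 in Dex minus untreated (8342) and 3366 in Dex minus Cort (7013). At 1 h 1657 were called with only its own groups (3309), and 1959 without wild-type 1 h liver 3. The division of Cort livers gave 437 without wild-type liver 1 (1505). Library totals moved the share of calls that were higher from 44.8% to 23.0% in liver minus WAT, from 56.3% to 76.5% in WAT minus muscle, from 45.3% to 35.5% in Dex minus Cort, from 49.2% to 34.9% at 1 h and from 51.9% to 61.6% in Cort minus untreated.

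With a block, which was the mouse in liver minus muscle (3 mice) and the replicate number elsewhere, 7 of the genes were called in liver minus muscle, 7 in Cort minus untreated, 2 in Dex minus untreated, 6 in Dex minus Cort and 0 at 1 h, in the genotype comparisons of liver and muscle and in the interactions with untreated liver. Over all genes, 11968 of 15058 were called in liver minus muscle. Of 16227 genes, 8055 were called in Cort minus untreated, 8108 in Dex minus untreated, 7098 in Dex minus Cort and 3709 at 1 h. Against the fits without the block, Cd14 (1.16) lost and Cd68 gained its call in liver minus muscle, Csf1r (-0.31) lost its call in Dex minus untreated, Marco gained one in Cort minus untreated (0.98, edgeR adjusted p 0.0212), and Cd5l (0.80, edgeR adjusted p 0.0332) gained one in Dex minus Cort. No paired analysis was possible because only replicate number 2 was shared in WAT, as far as replicate numbers go. With the range of the animal numbers as a term instead, the WAT genotype comparison called 0 genes, with 1127 unadjusted p values below 0.05 across the genome (699 without the term), and it called 0 of the 9 genes in Dex, Cort and untreated liver and in muscle. With 2 to 6 libraries a group, and 15.5 M or more counts each, changes of 2-fold were often below what the genotype tests could call.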
